A study of Mus musculus with 6 samples.

Results

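In mouse mesenchymal stem cells without Dicer, 66 genes had an exonic log2 ratio of KO over WT that exceeded their intronic log2 ratio by 1 or more. They were chosen from the deposited means of these same libraries among 9402 genes that averaged at least 50 normalised counts in both exonic and intronic reads, out of 18664 genes listed in both tables. A normalised count is a read count divided by the size factor of its library, and each log2 ratio was taken between group means after adding 1. Of the 9402 genes, 74 (0.787%) reached a difference of 1, and 8 of these were set aside by the rule: Nr6a1, Hmga2, Prtg, Kng2, Igf2bp1 and Igf2bp3 by name, Hist1h2bc as a histone gene, and Mal because it had no exonic read in WT cells. The values that chose the 66 genes are given below as a description, with no test.

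The study sequenced ribosome-depleted total RNA from immortalised monoclonal lines, in 6 groups: Dicer KO cells (Dicer -/-), Dicer WT cells (Dicer f/f), and WT cells that over-expressed Pbx3, Sox9 or Tead4 or carried the empty vector. Since each genotype comes from 1 clone, effects of genotype and of clone cannot be told apart. The lines are labelled as mesenchymal stem cells in some fields and as fibroblasts in others. No further treatment is labelled, and the sources used here do not give the animal source, its age or the promoter of the vector. Every group mean in the tables resolved into whole reads of 2 libraries, which are used below as replicates.

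Dicer is the ribonuclease that cuts precursor hairpins into mature microRNAs. A microRNA guides an Argonaute protein to messenger RNAs whose 3′ untranslated region (UTR) pairs with its seed, bases 2 to 8, and the targeted message is translated less and decays faster. Introns are removed soon after transcription, so intronic reads mostly follow the making of a transcript, whereas exonic reads follow both its making and its decay. The let-7 family, which is abundant in differentiated cells including stromal cells, is known for restraining fetal and proliferative genes such as Hmga2 and the Igf2bp genes.

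The sequences below are those that the seed-match results turn on. The 5 mature microRNAs, from RefSeq on GRCm38.p6, are printed 5′ to 3′ with the seed in capitals.
let-7a-5p: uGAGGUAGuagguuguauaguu
miR-16-5p: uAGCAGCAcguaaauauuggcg
miR-21a-5p: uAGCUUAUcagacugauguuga
miR-29a-3p: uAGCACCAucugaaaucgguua
miR-30a-5p: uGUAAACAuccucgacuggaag
Seed matches in the annotated 3′ UTRs (GENCODE M21 transcripts, GRCm38) follow, with the bases opposite the seed in capitals. They come from the genes with 3 or more let-7 matches, from the 5 genes long listed as let-7 targets, and from Tgfbr3, Reck, Dnmt3b, Galnt7 and Zfp568, whose values are given further on. The capitals read CTACCTC for let-7.
Trim6, chr7:104233459-104233480, plus strand: tactgattatagatCTACCTCa
Trim6, chr7:104233504-104233525, plus strand: tactgattatagctCTACCTCa
Trim6, chr7:104233941-104233962, plus strand: tctttataaacaaaCTACCTCt
Hif1an, chr19:44573354-44573375, plus strand: atgctgttggttctCTACCTCa
Fign, chr2:63973506-63973527, minus strand: tgaacttgaacagtCTACCTCa
Eif2c2, chr15:73097982-73098003, minus strand: tttacaatgtggatCTACCTCa
Arid3a, chr10:79953896-79953917, plus strand: aggcaagtttctttCTACCTCa
Arid3b, chr9:57790361-57790382, minus strand: atttcaataaagctCTACCTCt
Plagl2, chr2:153229898-153229919, minus strand: tcagaaacacacttCTACCTCt
Ccnj, chr19:40847924-40847945, plus strand: gttgagtattgtaaCTACCTCa
Tgfbr1, chr4:47410829-47410850, plus strand: ggaggctggttgttCTACCTCa
Tgfbr3, chr5:107106960-107106981, minus strand: tttttgtactgtaaCTACCTCa
In the next lines the capitals are ATAAGCT for miR-21, TGGTGCT for miR-29 and TGTTTAC for miR-30.
Reck, chr4:43944393-43944414, plus strand: ttttacagtttgaaATAAGCTa
Dnmt3b, chr2:153686613-153686634, plus strand: agagtagcccggcaTGGTGCTc
Zfp568, chr7:30023717-30023738, plus strand: acagggtttctcatTGGTGCTa
Galnt7, chr8:57525920-57525941, minus strand: tcatctgcagtgacTGTTTACa
Galnt7, chr8:57525886-57525907, minus strand: ccttaaactctagaTGTTTACa
Trim6 held 6 let-7 matches, more than any other of the 66 genes. Its first 5 lie exactly 45 bases apart in a tandem repeat, which is why the first and second lines above are nearly the same sequence. The Galnt7 matches to miR-30 lie 34 bases apart.

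Exonic depth ranged from 6130267 to 23501655 reads per library and intronic depth from 3156973 to 10205497 reads. Dicer1 itself had 935 and 1067 normalised counts in KO cells, against 1407 and 1343 in WT cells in exonic reads, and totals over the gene do not check the deletion of some of its exons. The transfected gene checked its label for Pbx3, at 36740.2 and 27165 in Pbx3 cells, against 259 and 221 in vector cells, and for Tead4, at 6866 and 5050.1 in Tead4 cells, against 38.8 and 40.7 in vector cells. Sox9 had 179 and 186 in Sox9 cells, against 116 and 47.5 in vector cells, a difference that did not pass the test across genes (limma, adjusted p = 0.272). Of 10 stromal markers, 9 averaged at least 50 normalised counts in all 6 groups, while Thy1, a defining marker of mesenchymal stem cells, had no read in any library. Markers of blood, endothelial and epithelial cells were at or near 0 apart from Cd68, which averaged 41.4 in KO cells and 51.2 in WT cells. Summed exonic counts of 6 blood genes, almost all Cd68, were 39.4 and 44.4 in KO cells and 61.3 and 41.2 in WT cells. Those of 4 endothelial and of 5 epithelial genes were between 0 and 13.8 in any library.

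Without Dicer, 60 of the 66 genes had higher exonic reads and 6 had lower exonic reads. The median exonic log2 ratio of KO over WT was 1.43 among the 66 genes and 0.01 among all 10706 genes tested, and the median intronic log2 ratio was 0.20 among the 66 and 0.01 among all 10215. At least 2-fold higher exonic reads were found for 46 of the 66, where 5.87% of all genes were at least 2-fold higher, and at least 2-fold lower ones for 3, where 6.61% of all genes were; the rule favours the first kind. In bulk RNA, more cells that express a gene and more RNA per cell cannot be told apart. Intronic reads stayed within 0.5 log2 units of WT for 34 of the 66, were at least 2-fold higher for 12 (3.69% of all genes) and at least 2-fold lower for 7 (5.21%). Since the rule subtracts the intronic ratio, it favours low intronic ratios.

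Both kinds of reads were higher in KO cells for 43 genes, exonic reads alone were higher for 17, and both were lower for 6. The 6 genes with lower exonic reads, Pappa, Rora, Stox2, Kif5c, Col8a1 and Bach2, entered because their intronic reads were lower still. In the plot of exonic against intronic change, these 6 lie at the lower left and the other 60 above zero on the exonic axis.

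**Figure D1:**
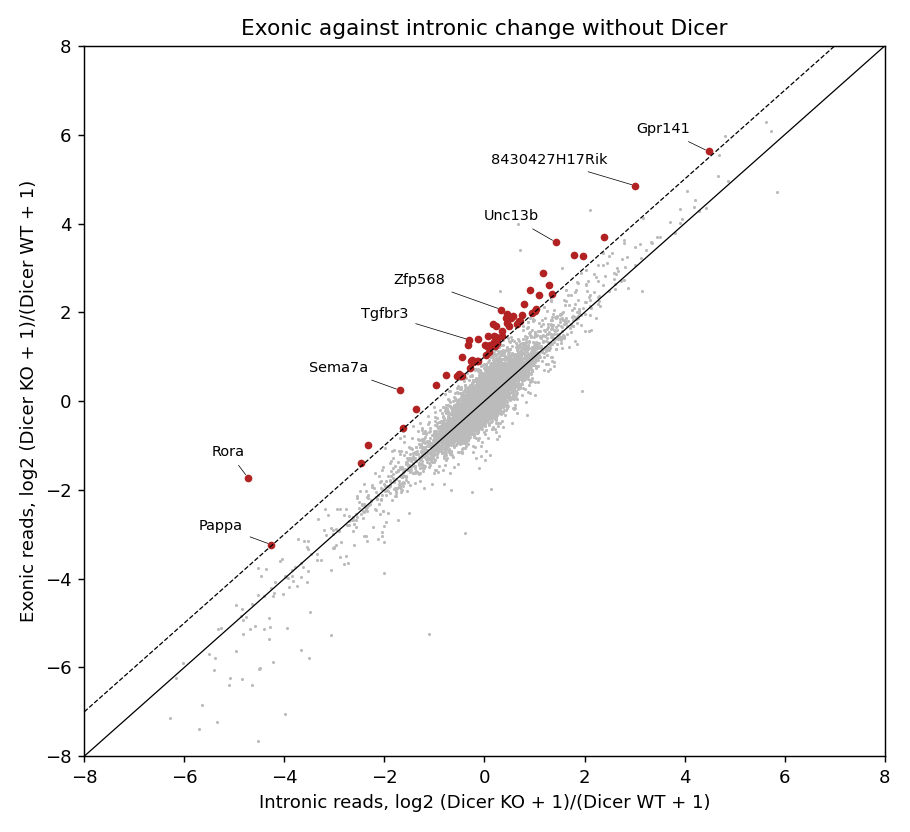
Each point is a gene with at least 50 mean normalised counts in both kinds of reads, placed by its intronic (x) and exonic (y) log2 ratio of Dicer KO over Dicer WT group means + 1; the 66 genes are red, the solid line marks equal ratios and the dashed line an exonic ratio 1 higher. The red points run along the dashed line from Pappa and Rora, lower in both, to Gpr141, the highest in both; 4 genes outside the axis range are not drawn.

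Library by library, the exonic minus intronic level was higher in both KO libraries than in both WT libraries for all 66 genes, as it was for 29.7% of all 9402 genes. The rule used the means of these same libraries, so it favours this count and the gaps and higher exonic reads that follow. The lowest KO value lay above the highest WT value by 0.45 log2 units for Rpl22l1, the closest, and by a median of 0.97 over the 66 genes. Exonic reads on their own did not overlap for 62 genes (57 higher, against 33% of all genes, and 5 lower, against 30.3%). The 4 genes whose exonic libraries did overlap were Sema7a, Idua, Adam12 and Bach2. The intronic KO values below are listed in the order of the exonic libraries they go with, an order read from how all genes deviate together and not from the labels. How reads of overlapping genes, or of near-identical copies such as those of ribosomal protein genes, were assigned is not given in the sources used here, and the values of such genes are uncertain.

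**Figure D2:**
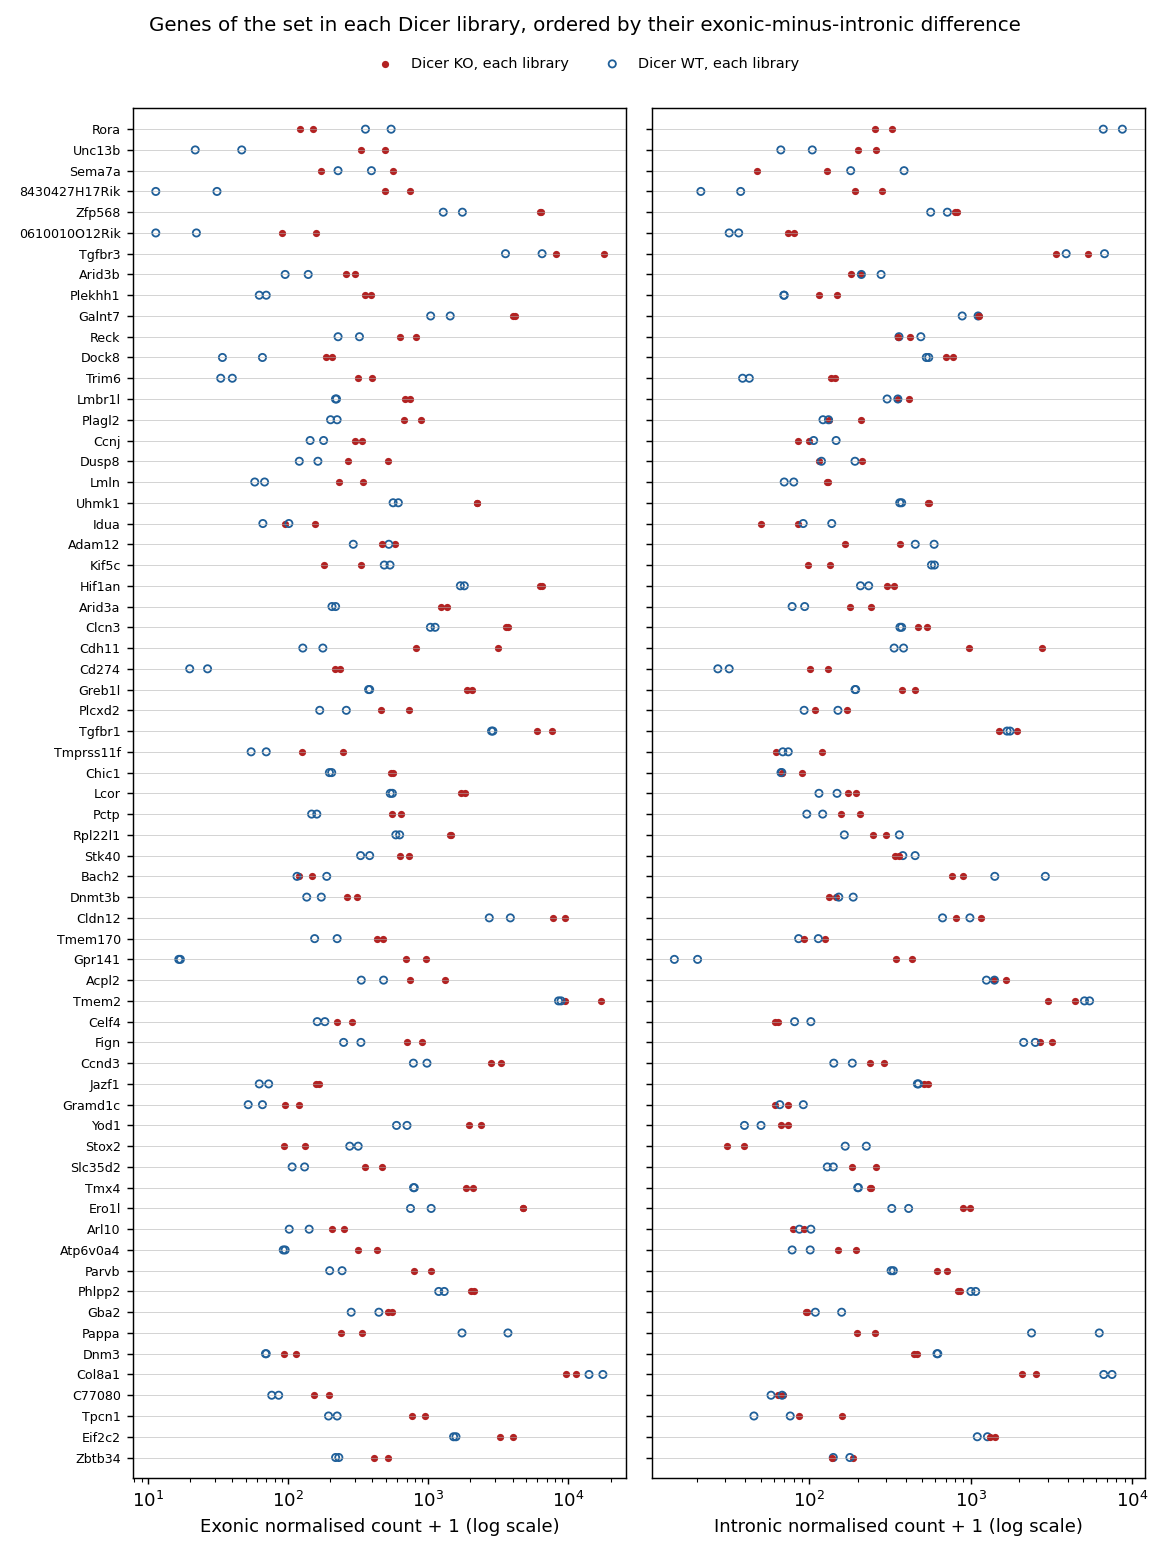
Exonic (left) and intronic (right) normalised counts + 1, on log axes, of genes of the set in the 2 Dicer KO libraries (filled red) and the 2 Dicer WT libraries (open blue), ordered from the largest difference at the top. Most red points lie right of the blue ones in the exonic panel. In the intronic panel they lie to the right of the blue ones for some genes, to the left for others and among them for the rest. Rora at the top is displaced to the left in both panels, far more so in intronic reads.

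Receptors, secreted proteins and cell-surface proteins made up 14 of the 66 genes, of which 12 had higher exonic reads and 2, Pappa and Col8a1, had lower. Tgfbr1, the type I receptor that signals for TGF-β, had 5982 and 7652 normalised counts in KO cells, against 2889.6 and 2827 in WT cells in exonic reads. In intronic reads Tgfbr1 had 1503 and 1949 normalised counts in KO cells, against 1681 and 1754 in WT cells. The exonic groups were well apart while the WT intronic values fell between those of the KO libraries, and the log2 ratio was 1.25 for exonic reads and 0.01 for intronic reads, a difference of 1.25.

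Tgfbr3, the betaglycan co-receptor that presents TGF-β ligands, had 8221 and 17882 normalised counts in KO cells, against 3557 and 6490.2 in WT cells in exonic reads. In intronic reads it had 3362 and 5308 normalised counts in KO cells, against 3911 and 6764 in WT cells. Both KO libraries exceeded both WT libraries in exonic reads although the KO libraries stood far apart, the intronic ranges overlapped, and the difference was 1.68. Reck, a membrane-anchored inhibitor of matrix metalloproteinases and a textbook target of miR-21, had 629 and 815 normalised counts in KO cells, against 226 and 322 in WT cells in exonic reads. Intronic reads of Reck were 351 and 421 normalised counts in KO cells, against 359 and 490.4 in WT cells. The exonic values did not overlap and the intronic values did, with log2 ratios of 1.39 and -0.14.

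Sema7a, a semaphorin held at the membrane by a lipid anchor, had 563 and 169 normalised counts in KO cells, against 392 and 226 in WT cells in exonic reads. Intronic reads of Sema7a were 127 and 46.4 normalised counts in KO cells, against 386 and 179 in WT cells. The exonic ranges overlapped, both KO intronic values lay below both WT values, and the difference of 1.94 came from lower intronic reads (log2 ratio -1.69) with little exonic change (0.24). Adam12, a membrane-bound metalloproteinase, also had overlapping exonic libraries and lower intronic reads, at 0.37 for exonic and -0.98 for intronic reads.

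Gpr141, an orphan G-protein-coupled receptor, had 967 and 688 normalised counts in KO cells, against 16.03 and 15.6 in WT cells in exonic reads, the highest exonic ratio of the 66 genes. In intronic reads Gpr141 had 432 and 344 normalised counts in KO cells, against 19.3 and 13.6 in WT cells, so both kinds of reads were many-fold higher and the difference was 1.14. Cd274, which encodes the immune checkpoint ligand PD-L1, had 234 and 214 normalised counts in KO cells, against 18.9 and 25.6 in WT cells in exonic reads and log2 ratios of 3.27 exonic and 1.97 intronic. Cdh11, a cadherin of mesenchymal cells, had 812 and 3129 normalised counts in KO cells, against 126 and 176 in WT cells in exonic reads. Its KO libraries stood far apart from each other, in intronic reads as well, at 982 and 2780.1 normalised counts in KO cells, against 335 and 383 in WT cells.

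Pappa, a protease that cleaves IGF-binding proteins, had 239 and 338 normalised counts in KO cells, against 3703 and 1740.1 in WT cells in exonic reads. Intronic reads of Pappa were 196 and 253 normalised counts in KO cells, against 6274 and 2385 in WT cells, lower by a log2 ratio of -4.26 where exonic reads gave -3.23. Col8a1, a collagen VIII chain, followed the same order with smaller ratios, -0.60 exonic and -1.62 intronic. The remaining genes of this kind were Cldn12 (a claudin), Tmem2 (a cell-surface hyaluronidase), Lmbr1l and Tmprss11f, with differences between 1.13 and 1.48.

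Transcription factors and chromatin proteins numbered 11, with 8 higher and 3 lower in exonic reads. Rora, a nuclear receptor known for its part in the circadian clock, had the largest difference of all 66 genes although it was lower without Dicer. Its exonic reads were 120.1 and 151 normalised counts in KO cells, against 355 and 543 in WT cells. In intronic reads Rora had 253 and 324 normalised counts in KO cells, against 8727 and 6646 in WT cells. Neither kind overlapped between the groups, and the log2 ratio was -1.72 for exonic reads and -4.73 for intronic reads, a difference of 3.01.

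Zfp568, a KRAB zinc finger protein known for silencing a placental promoter of Igf2, had 6350.1 and 6302 normalised counts in KO cells, against 1752 and 1279 in WT cells in exonic reads. Intronic reads of Zfp568 were 800.3 and 817 normalised counts in KO cells, against 716 and 565 in WT cells. Both were higher in KO cells in every library, exonic by a log2 ratio of 2.06 and intronic by 0.34. Its 3′ UTR held 4 miR-29 matches and 1 let-7 match.

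Arid3a and Arid3b, related DNA-binding proteins that are established let-7 targets, were both in the set. Arid3a had 1242 and 1363 normalised counts in KO cells, against 205 and 217 in WT cells in exonic reads, and intronic values of 178 and 242 normalised counts in KO cells, against 92.6 and 77.2 in WT cells. Arid3b had 259 and 302 normalised counts in KO cells, against 94.3 and 138 in WT cells in exonic reads, and intronic values of 179 and 209 normalised counts in KO cells, against 209 and 278 in WT cells. For Arid3a both kinds of reads were higher in KO cells (2.62 and 1.30), while for Arid3b the exonic log2 ratio was 1.26 and the intronic one -0.33.

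Plagl2, a zinc finger transcription factor and listed let-7 target, had 667 and 887 normalised counts in KO cells, against 199.9 and 223 in WT cells in exonic reads. Intronic reads of Plagl2 were 131 and 208 normalised counts in KO cells, against 121 and 130.4 in WT cells, with every KO value above the WT values by a narrow margin in one library. Dnmt3b, a de novo DNA methyltransferase and known miR-29 target, had 312 and 263 normalised counts in KO cells, against 172 and 135 in WT cells in exonic reads. In intronic reads Dnmt3b had 146 and 132 normalised counts in KO cells, against 186 and 151 in WT cells, no higher than in WT cells, and the log2 ratios were 0.90 and -0.28.

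Zbtb34, a zinc finger protein, stood at the threshold with a difference of 1.02. It had 406 and 513 normalised counts in KO cells, against 229 and 217 in WT cells in exonic reads, and 137 and 185 normalised counts in KO cells, against 139.8 and 177 in WT cells in intronic reads. Stox2 (-1.39 exonic, -2.48 intronic) and Bach2 (-0.19 exonic, -1.37 intronic) were lower in both kinds of reads, as Rora was. Lcor, a ligand-dependent corepressor, and Jazf1, a zinc finger protein, were higher in exonic reads with intronic ratios of 0.49 and 0.17.

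All 7 cell cycle, kinase and phosphatase genes had higher exonic reads without Dicer, with a median exonic log2 ratio of 0.98 and a median intronic one of -0.14. Ccnj, which encodes cyclin J, had 335 and 302 normalised counts in KO cells, against 178 and 143 in WT cells in exonic reads. Intronic reads of Ccnj were 84.0 and 98.6 normalised counts in KO cells, against 146 and 105 in WT cells, lower than in WT cells in both libraries. Ccnd3, the cyclin D3 partner of Cdk4 and Cdk6, had 2806 and 3311 normalised counts in KO cells, against 783 and 978 in WT cells in exonic reads. Intronic reads of Ccnd3 were 237 and 291 normalised counts in KO cells, against 141 and 184 in WT cells, so both kinds were higher and the difference was 1.10. Ccnd3 is a textbook target of miR-15/16, and its annotated 3′ UTR held 1 miR-15/16 match and no let-7 match.

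Uhmk1, a serine/threonine kinase that acts on splicing factors, had 2228 and 2229 normalised counts in KO cells, against 611 and 560.3 in WT cells in exonic reads, with libraries of each group close together, and 6 matches to the miR-15/16 seed. Phlpp2, a protein phosphatase, had the lowest exonic ratio of this group, 0.74, with an intronic ratio of -0.30. The MAP kinase phosphatase Dusp8 and the kinase Stk40 had differences of 1.39 and 1.19.

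Of the 66 genes, 5 act on RNA, the ribosome or ubiquitin, and exonic reads of all 5 were higher. Eif2c2, which encodes Argonaute 2, the protein that carries microRNAs to their targets, had 3259 and 4004 normalised counts in KO cells, against 1515 and 1576 in WT cells in exonic reads. In intronic reads Eif2c2 had 1327 and 1420.1 normalised counts in KO cells, against 1271 and 1099 in WT cells. Neither kind overlapped between the groups, by a wide margin in exonic reads and a narrow one in intronic reads, and the log2 ratios of 1.23 and 0.21 put it just above the threshold. Its 3′ UTR of 11064 bases, the longest of the set, held 3 let-7 matches.

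Trim6, an E3 ubiquitin ligase of the tripartite motif family, had 399 and 313 normalised counts in KO cells, against 32.1 and 39.0 in WT cells in exonic reads. In intronic reads Trim6 had 144 and 135 normalised counts in KO cells, against 41.5 and 37.6 in WT cells. Both kinds were several-fold higher without Dicer, by log2 ratios of 3.29 and 1.80. Yod1, a deubiquitinase, had log2 ratios of 1.74 exonic and 0.65 intronic, and 2 let-7 matches. Rpl22l1, a ribosomal protein paralog, had an annotated 3′ UTR of 93 bases with no match to let-7, and log2 ratios of 1.25 and 0.05. Celf4, an RNA-binding protein, had 0.57 and -0.55.

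Enzymes, transporters and cytoskeletal proteins were the largest class, with 17 of 18 higher in exonic reads. Unc13b, which primes vesicles for release in neurons, had 328 and 488 normalised counts in KO cells, against 20.7 and 45.7 in WT cells in exonic reads. Intronic reads of Unc13b were 198 and 258 normalised counts in KO cells, against 65.6 and 103 in WT cells. All KO values lay above all WT values in both kinds, and the log2 ratio was 3.58 for exonic reads and 1.42 for intronic reads, a difference of 2.16, the second largest of the 66.

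Galnt7, an enzyme that starts mucin-type O-glycans, had 4185 and 4027 normalised counts in KO cells, against 1434 and 1039 in WT cells in exonic reads. In intronic reads Galnt7 had 1127 and 1117 normalised counts in KO cells, against 1112 and 886 in WT cells. KO libraries agreed closely in both kinds, and the log2 ratio was 1.73 exonic and 0.17 intronic. Dock8, an activator of the small GTPase Cdc42 studied mostly in immune cells, had 184 and 203 normalised counts in KO cells, against 33.0 and 64.6 in WT cells in exonic reads. Intronic reads of Dock8 were 772 and 703 normalised counts in KO cells, against 530.3 and 549 in WT cells, higher in every KO library by a smaller ratio (0.45 against 1.97 for exonic reads).

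Hif1an, the asparaginyl hydroxylase that restrains HIF-1α, had 6493 and 6255 normalised counts in KO cells, against 1694 and 1808 in WT cells in exonic reads, log2 ratios of 1.86 and 0.53, and 3 let-7 matches. Fign, a microtubule-severing enzyme, had ratios of 1.46 and 0.35 and also 3 matches. The endosomal chloride exchanger Clcn3 (1.76 and 0.45) and the lipid carrier Pctp (1.94 and 0.74) were alike in scale. Ero1l, which forms disulphide bonds in the endoplasmic reticulum, had 4726 and 4777 normalised counts in KO cells, against 1048 and 746 in WT cells in exonic reads and a log2 ratio of 1.35 in intronic reads. Kif5c, a kinesin heavy chain, was the member of this class with lower reads, -0.99 exonic and -2.33 intronic.

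Tpcn1, an endolysosomal cation channel, was next to the threshold. It had 769 and 947 normalised counts in KO cells, against 193 and 223 in WT cells in exonic reads, and 85.0 and 159 normalised counts in KO cells, against 44.3 and 75.1 in WT cells in intronic reads, so that its difference was 1.02. The other genes of this class were the lysosomal enzyme Idua, the glucosylceramidase Gba2, the proton pump subunit Atp6v0a4, the sugar transporter Slc35d2, the thioredoxin-related Tmx4, Acpl2, the adhesion protein Parvb and the dynamin Dnm3. Their exonic log2 ratios ran from 0.56 for Gba2 to 2.07 for Parvb.

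The other 11 genes, which were not grouped by role, all had higher exonic reads. 8430427H17Rik, annotated as Nol4l in GENCODE, had 489 and 734 normalised counts in KO cells, against 10.4 and 30.1 in WT cells in exonic reads. Intronic reads of 8430427H17Rik were 192 and 280.1 normalised counts in KO cells, against 20.2 and 36.5 in WT cells, and it showed the second largest exonic ratio, 4.85, with a difference of 1.84. 0610010O12Rik, annotated as Cystm1, had 157 and 88.8 normalised counts in KO cells, against 10.4 and 21.2 in WT cells in exonic reads. Intronic reads of 0610010O12Rik were 73.0 and 78.9 normalised counts in KO cells, against 30.9 and 35.5 in WT cells, and no library of one group reached the other group in either kind.

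Plekhh1 had 391 and 350.1 normalised counts in KO cells, against 68.8 and 61.3 in WT cells in exonic reads. In intronic reads Plekhh1 had 148 and 113 normalised counts in KO cells, against 68.5 and 68.9 in WT cells, and both kinds were higher in KO cells with a difference of 1.57. Greb1l (2.38 exonic, 1.10 intronic), Lmln (2.19, 0.80), Plcxd2, Chic1, Tmem170, Gramd1c, Arl10 and C77080 completed the list, with differences between 1.02 and 1.39. Just outside the threshold lay 5730508B09Rik, Polr3g and Brwd3. 5730508B09Rik had log2 ratios of 1.38 and 0.38, Polr3g 1.16 and 0.17, and Brwd3 1.44 and 0.45, which put their differences just under 1.

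Genes that the literature lists as targets of given microRNAs were counted beside the 66, leaving out those that are among them. In the exonic minus intronic difference, 11 of 22 other let-7 targets passed higher in KO cells and 0 lower (limma, adjusted p under 0.05 over all genes), where 5.56% of all genes passed higher and 1.43% lower. Those 11 were Bach1, Ccnd2, Cdc25a, Cdc34, Cdk6, Hmga2, Igf2bp1, Igf2bp3, Nr6a1, Prtg and Slc20a1, of which 5 had been set aside from the 66 by name. The median difference of the 22 was 0.42, against 0.02 over all genes. For the same test, 5 of 10 other miR-15/16 targets, 6 of 18 miR-29 targets, 2 of 12 miR-17/20 targets, 2 of 14 miR-34 targets, 1 of 6 targets of miR-143 or miR-145 and 0 of 9 miR-21 targets passed higher, and none of these passed lower. Some genes are on several lists, so these counts are not independent. Ccnd2, Cdc25a and Cdk6 passed on both the let-7 and the miR-15/16 list, and Cdk6 also on the miR-34 list. At an unadjusted p under 0.05, a level for which no share of all genes is given here, 1 of the 9 miR-21 targets was higher.

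In exonic reads alone, 13 of 24 other let-7 targets passed higher and 0 lower, where 9.28% of all genes passed higher and 7.36% lower; 6 of the 13 (Hmga2, Igf2bp1, Igf2bp2, Igf2bp3, Nr6a1 and Prtg) are genes that the rule names for exclusion. The miR-29 list gave 7 higher and 3 lower of 19, and the miR-34 list 3 higher and 3 lower of 14. In the machinery that makes and uses microRNAs, 2 of 10 genes other than Eif2c2 passed higher in the difference, Tnrc6a and Tnrc6b, which encode the GW182 proteins that bind Argonaute. Tnrc6a had a fitted difference of 0.91 ± 0.09 (SE, adjusted p = 0.00094) and Tnrc6b of 0.59 ± 0.09 (adjusted p = 0.0050), both from limma. The lists were drawn up with earlier results of these data known, and the let-7 pattern had been seen in them. The number of genes called in this difference, 657 in all, was 350 to 749 when a library was left out, 2242 with a term for library order and 1 with unpaired exonic and intronic libraries.

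The sequences of the 66 genes had not entered the choice. All 66 were matched to an annotated 3′ UTR, 5 of them through an older symbol, as were 9265 of the 9402 genes measured. The let-7 motif CTACCTC, searched on the transcript strand in the longest annotated 3′ UTR, was in 30 of 66 genes, or 45.5% (95% Clopper-Pearson interval 33.1 to 58.2%, for counting error only). It was in 10.9% of all 9265 genes. The 3′ UTRs of the 66 genes were longer, with a median of 2563.5 bases against 1273 bases over all genes, so that matches are also given per length. Per kilobase of 3′ UTR there were 0.235 matches in the 66 genes and 0.0694 in the other genes, a ratio of 3.38.

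None of the other 22 microRNA families of stromal cells that were searched had a ratio per kilobase as high as let-7. With the 7-base match, their ratios ran from 0.65 for miR-24 (CTGAGCC) to 1.59 for miR-21 (ATAAGCT). For that match, 18 of the 23 families, let-7 included, were above 1. For miR-15/16 (TGCTGCT), the most frequent motif, a match stood in 51.5% of the 66 genes and in 26.6% of all genes, with a ratio of 1.39 per kilobase. Of 3 families known mainly from other tissues, miR-142a-3p (ACACTAC) had a ratio of 1.25, miR-200b (CAGTATT) of 1.08, and miR-208 (CGTCTTA) had no match in the 66 genes. Some motifs overlap, such as TTTGCAC of miR-19 and TTGCACT of miR-130, or TGCTGCT of miR-15/16 and ATGCTGC of miR-103, so that a stretch of sequence can count for both. At least 1 stromal family had a match in 64 of the 66 genes, or 97.0%, and in 84.0% of all genes. With an 8-base match, the motif followed by A, the let-7 ratio per kilobase was 5.62. The next highest stromal families then reached 2.92 (miR-29), 2.46 (miR-21) and 2.40 (miR-15/16), well above the 7-base range. For the 8-base match, 17 of the 23 stromal families, let-7 included, were above 1.

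**Figure D3:**
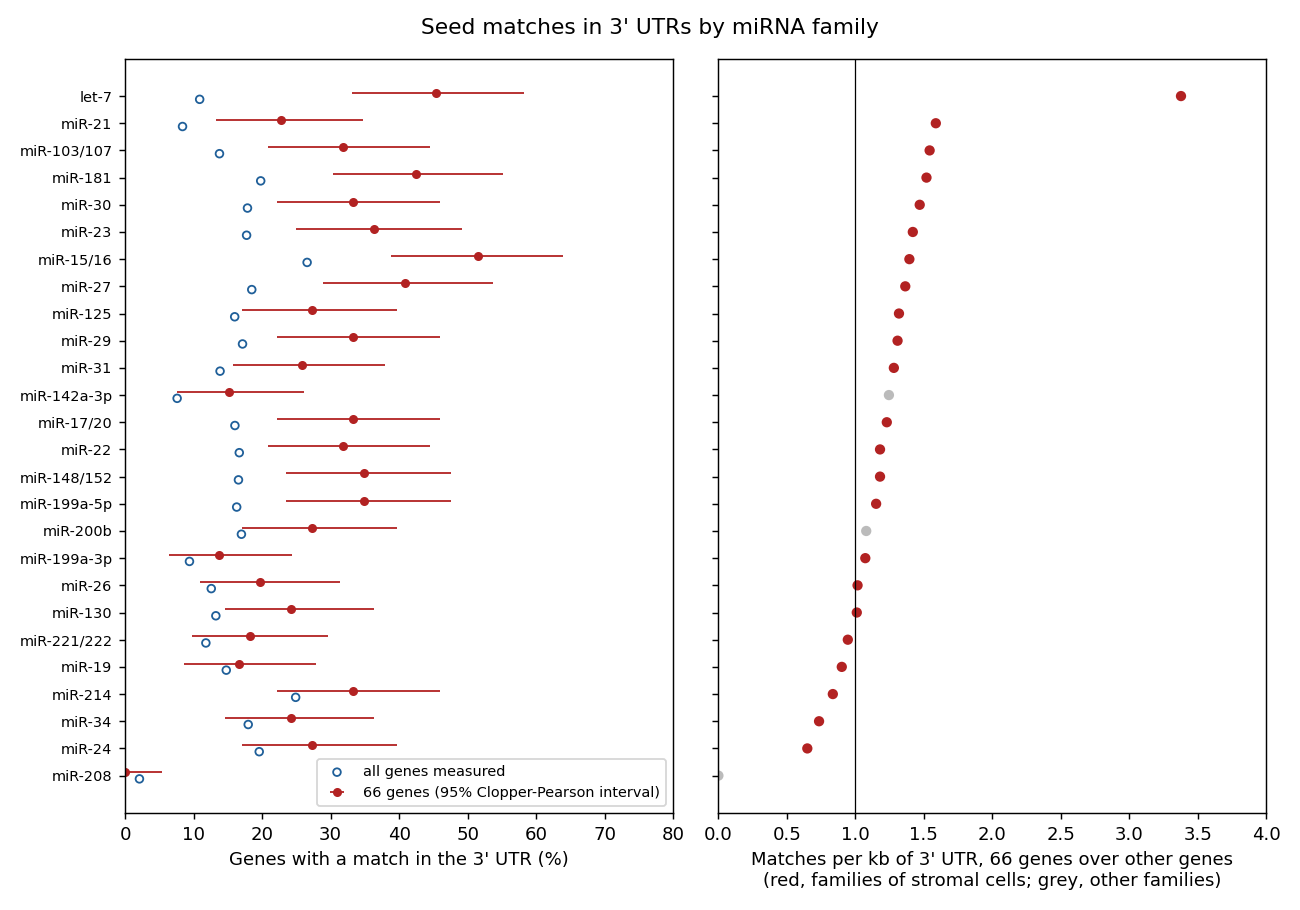
Left, the share of genes with at least 1 match to each family's seed in the longest annotated 3′ UTR, for the 66 genes (red, with 95% Clopper-Pearson intervals) and for all genes measured (open blue); right, matches per kilobase in the 66 genes over those in the other genes, with 1 marked by a line. The let-7 point at 3.38 lies apart from all other families, which end at 1.59 for this 7-base match.

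The share of genes with a let-7 match followed the size of the difference. It was 45.5% in the 66 genes, 24.4% in the 430 genes with a difference of 0.5 to 1, 12.03% in the 4573 genes between 0 and 0.5, and 7.57% in the 4188 genes below 0. Matches per kilobase followed the same order, at 0.235, 0.108, 0.0722 and 0.0559, and median 3′ UTR length did as well, at 2563.5, 2204.5, 1405 and 1049 bases. Read the other way, 8.53% of the genes with 2 or more let-7 matches were among the 66, against 2.16% of genes with 1 match and 0.436% of genes with none. This order over all genes was known from earlier results of these data and is not independent support.

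Within the 66 genes, 36 had no let-7 match, 19 had 1, 7 had 2, 3 had 3 (Hif1an, Fign and Eif2c2) and Trim6 had 6. The 30 genes with a match had a median exonic log2 ratio of 1.53 and a median difference of 1.28, against 1.29 and 1.14 for the 36 without one. The rule selected on this difference, so these medians describe the set and are no test of the match. The 5 largest differences included genes of both kinds: Rora, Unc13b and Sema7a had no let-7 match, while 8430427H17Rik and Zfp568 had 1 each. By role, let-7 matches stood in 7 of 14 surface and secreted genes, 5 of 11 transcription genes, 3 of 7 cell cycle genes, 3 of 5 genes of RNA and ubiquitin, 6 of 18 enzyme and cytoskeletal genes, and 6 of 11 others. A match is a stretch of letters and not a shown site, and its absence from an annotated UTR says nothing about other transcripts.

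In WT cells that over-express a transcription factor, Dicer is present, and these libraries played no part in choosing the 66 genes. The 3 comparisons share the vector libraries. Genes had to average 50 normalised counts in a table to be tested, which 47 of the 66 did in exonic reads with Pbx3, 47 with Sox9 and 49 with Tead4. For the difference, which needs both kinds of reads, 39, 37 and 42 genes were tested. Trim6 and Cd274, which were low in WT cells, were below this minimum in all 3 exonic tables.

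With Pbx3, a homeodomain factor, no tested gene of the set passed. By limma, 0 of 47 passed in exonic reads, 0 of 43 in intronic reads and 0 of 39 in the difference. Below an unadjusted p of 0.05 were 3, 4 and 6, and the shares of all genes below it are not given here. In the authors' deposited table, 0 of the 66 had an adjusted p under 0.05 in either kind of reads, where that table called 0.102% of all genes in exonic and 0.108% in intronic reads. Over all genes, limma called 0.0102% in exonic reads, 0% in intronic reads and 0.0125% in the difference. The median exonic log2 ratio was 0.13, with 37 of 47 genes above 0, against 50.4% of all genes, and the median difference was 0.10, with 29 of 39 above 0, against 51.6%. The 3 largest exonic values were those of Rora, Tpcn1 and Chic1. Rora had 40.5 and 50.3 in Pbx3 cells, against 166 and 88.6 in vector cells, a fitted log2 difference of -1.41 ± 0.39 (SE) with an adjusted p of 0.9998, and the groups did not overlap. Tpcn1 (0.58 ± 0.27) and Chic1 (0.58 ± 0.23) were higher by less.

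With Sox9, a factor of cartilage and progenitor cells, 3 of 41 genes passed in intronic reads, Jazf1 and Pappa higher and Rora lower, where 1.45% of all genes passed higher and 0.538% lower. Jazf1 had 117 and 121 in Sox9 cells, against 26.5 and 23.8 in vector cells, a fitted log2 difference of 2.20 ± 0.26 (SE; limma, adjusted p = 0.0033). Its exonic reads, 25.6 and 18.2 in Sox9 cells, against 5.82 and 3.96 in vector cells, were below the minimum. Pappa intronic reads were 891 and 1043 in Sox9 cells, against 526 and 494 in vector cells, or 0.92 ± 0.16 (limma, adjusted p = 0.0245). In both genes every Sox9 library lay above every vector library. Intronic reads of Rora were 416 and 274 in Sox9 cells, against 817 and 659 in vector cells, or -1.12 ± 0.22 (limma, adjusted p = 0.0463), with all Sox9 values below all vector values. Single libraries carried these calls except that of Jazf1: without Sox9 library 2, Pappa and Rora both had an adjusted p of 0.172 (limma), Rora had 0.0650 without vector library 1 and 0.0649 without vector library 2, and Pappa had 0.0615 without vector library 2.

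In exonic reads 0 of 47 genes passed with Sox9 by limma, where 0.547% of all genes passed at the same adjusted threshold. At an unadjusted p under 0.05 there were 15 of 47, and the share of all genes at that level is not given here. The authors' deposited table called 3 of the 66, Dock8, Stox2 and C77080, and 1.14% of all genes. In intronic reads the authors' deposited table called 4 of the 66 (Rora, Jazf1, Stox2 and Pappa) and 1.23% of all genes. The largest exonic values were those of Dock8, Cdh11 and C77080. Dock8 had 114 and 95.03 in Sox9 cells, against 33.4 and 22.7 in vector cells, with a fitted log2 difference of 1.88 ± 0.33 (SE; limma, adjusted p = 0.0745). Cdh11 had 355 and 191 in Sox9 cells, against 72.7 and 69.2 in vector cells, or 1.86 ± 0.31 (limma, adjusted p = 0.0631). C77080 had 82.2 and 79.4 in Sox9 cells, against 33.4 and 16.8 in vector cells, or 1.72 ± 0.40 (limma, adjusted p = 0.168). For none of these did the groups overlap, yet with 2 libraries each they did not pass.

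The exonic minus intronic difference passed for 0 of 37 genes with Sox9 by limma, where 0.0128% of all genes passed at the same adjusted threshold. At an unadjusted p under 0.05 there were 9 of 37, again with no share of all genes to set beside them. The largest difference was that of Dock8, 1.60 ± 0.21 (SE; limma, adjusted p = 0.0703), followed by Cdh11, 0.98 ± 0.19, and Bach2, -0.82 ± 0.16. The median difference was 0.04, with 19 of 37 genes above 0, against 50.7% of all genes. Leaving out vector library 1 raised the exonic calls with Sox9 to 12 of the set and 1271 over all genes, and leaving out vector library 2 to 4 and 252. In such fits the lone vector library is assumed to vary like the other group.

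With Tead4, the DNA-binding partner of the Hippo co-activators YAP and TAZ, exonic reads of Dock8 passed higher, 1 of 49 genes tested, where 0.0817% of all genes passed higher. Dock8 had 513 and 299 in Tead4 cells, against 39.7 and 26.7 in vector cells, a fitted log2 difference of 3.55 ± 0.34 (SE; limma, adjusted p = 0.0397). Its intronic reads were 891 and 655 in Tead4 cells, against 278 and 221 in vector cells, or 1.62 ± 0.20 (limma, adjusted p = 0.0136). The exonic minus intronic difference was 1.93 ± 0.17 (limma, adjusted p = 0.0018), 1 of 2 genes called among 7984. Tead4 libraries lay above vector libraries throughout. Without Tead4 library 1 the exonic call was lost, with an adjusted p of 0.160, and at a minimum mean of 200 it was 0.053 (limma). The difference did not pass with unpaired exonic and intronic libraries, nor with a term for library order.

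The exonic ratio of Dock8 exceeded its intronic ratio in all 4 comparisons, at 1.52 without Dicer, 1.59 with Sox9 and 1.95 with Tead4 by group means, and 0.44 with Pbx3. The last 3 values share their vector libraries, whose exonic counts of Dock8 were low (39.7 and 26.7 in the Tead4 table). Tead4 itself is named for exclusion by the rule, but it was not among the 74 genes that reached a difference of 1. It had 237 and 164 normalised counts in KO cells, against 65.1 and 25.6 in WT cells in exonic reads of the Dicer comparison. Whether the changes of Tead4 and Dock8 in KO cells are linked was not tested. The annotated 3′ UTR of Dock8 held no let-7 match, 1 miR-31 match and 1 miR-34 match.

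**Figure D4:**
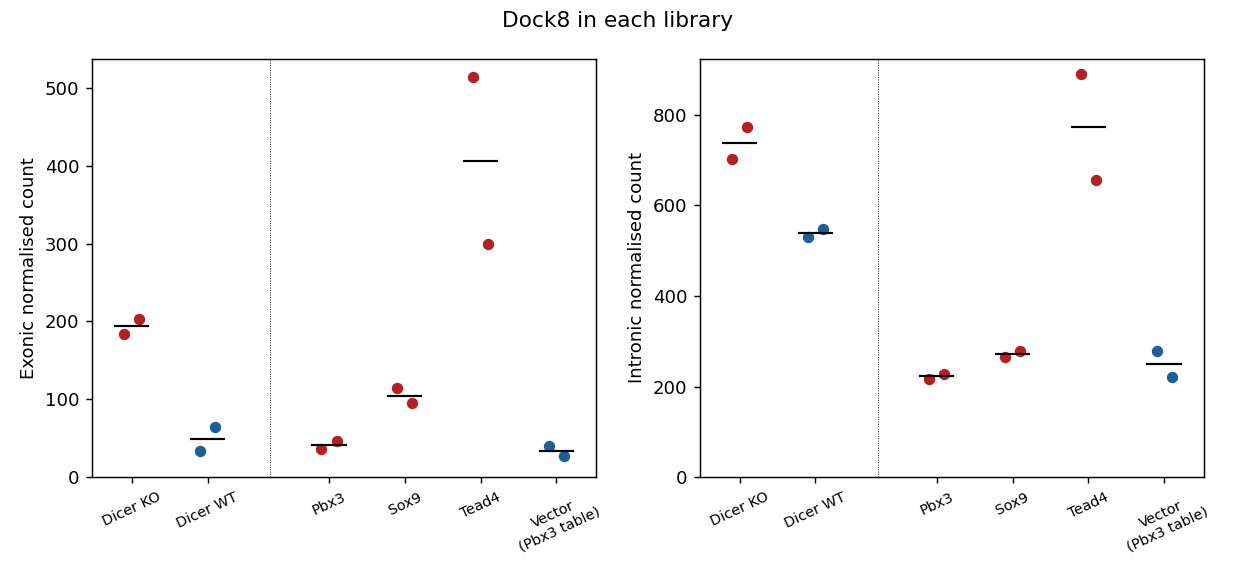
Exonic (left) and intronic (right) normalised counts of Dock8, with points for libraries and bars for group means, the vector libraries as scaled in the Pbx3 table; the dotted line separates the Dicer comparison from the factor comparisons, whose counts are scaled within other tables. Exonic counts are highest in the 2 Tead4 libraries (513 and 299), which stand apart from each other, and the KO and Sox9 libraries lie above the WT and vector libraries.

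In intronic reads with Tead4, 4 of 45 genes passed, Dock8 and Parvb higher and Rora and Adam12 lower, where 0.757% of all genes passed higher and 0.851% lower. Intronic reads of Rora were 240.2 and 248 in Tead4 cells, against 911 and 724 in vector cells, or -1.73 ± 0.16 (SE; limma, adjusted p = 0.0056). Adam12 had 76.1 and 68.0 in Tead4 cells, against 143 and 203 in vector cells, or -1.23 ± 0.22 (limma, adjusted p = 0.0457). Parvb, a focal adhesion protein, had 341 and 269 in Tead4 cells, against 165 and 138 in vector cells, or 1.003 ± 0.18 (limma, adjusted p = 0.0471). None of these 4 genes overlapped between the groups. Without Tead4 library 1, Parvb had an adjusted p of 0.374 and Adam12 of 0.106 (limma), and without Tead4 library 2 Adam12 had 0.0784. Parvb also missed the threshold at a minimum of 200, with an adjusted p of 0.056.

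Exonic reads of Rora were 13.5 and 17.6 in Tead4 cells, against 164 and 87.2 in vector cells, a fitted log2 difference of -2.88 ± 0.43 (SE) that did not pass (limma, adjusted p = 0.0963). C77080 followed in size, with 98.7 and 106 in Tead4 cells, against 39.7 and 19.8 in vector cells, or 1.83 ± 0.40 (limma, adjusted p = 0.153). Among the 49 genes the median exonic log2 ratio was 0.10, with 32 above 0, against 50.04% of all genes, and the median difference over 42 genes was 0.07, with 27 above 0, against 52.0%. The authors' deposited table called 5 of the 66 in exonic reads with Tead4 (Rora, Dock8, Adam12, Celf4 and C77080), where it called 1.7% of all genes, and 5 in intronic reads, where it called 1.07%. Leaving out vector library 1 raised the exonic limma calls in the set to 17 (2375 over all genes), and leaving out vector library 2 raised them to 9 (1136).

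**Figure D5:**
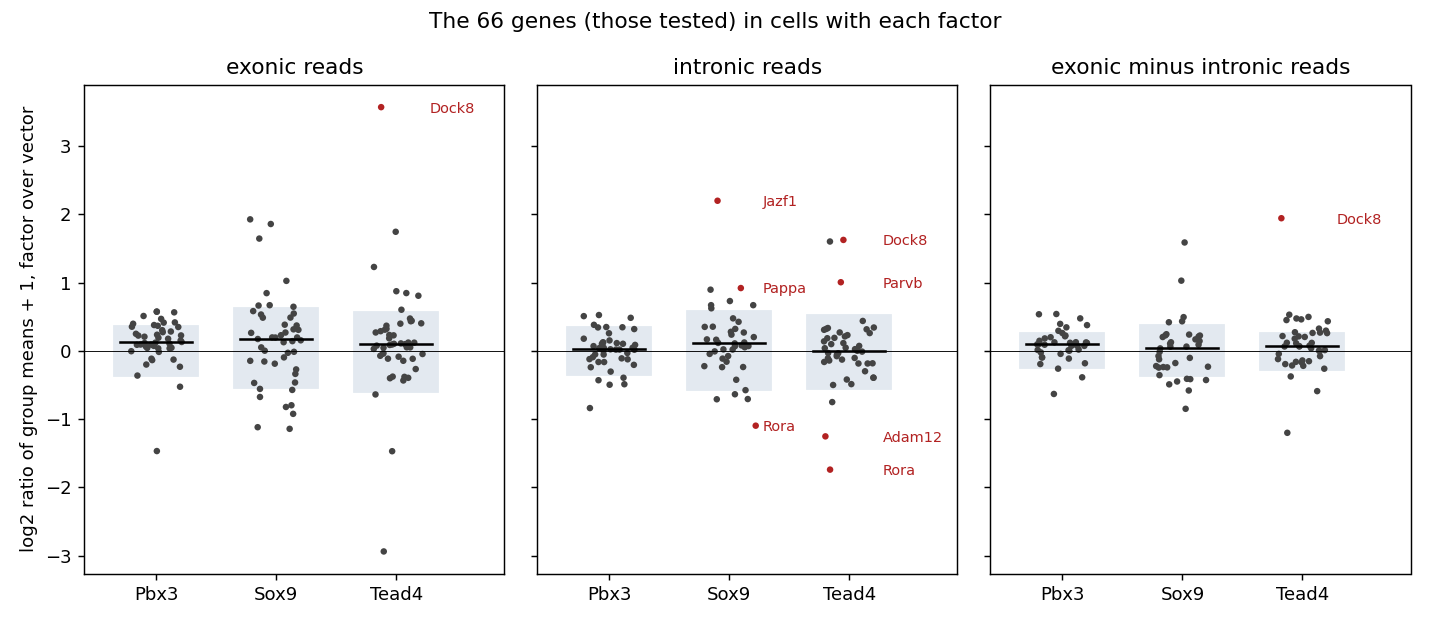
Log2 ratio of group means + 1, factor over vector, of each tested gene of the set in exonic reads, intronic reads and their difference; black bars are medians, the pale blocks span the 5th to 95th percentile of all genes, and genes that passed limma are red and named. Medians lie between 0.003 and 0.18, inside the blocks, and most points do too; Dock8 with Tead4 is the highest point in exonic reads and in the difference.

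In the factor comparisons, an exonic minus intronic difference of 1 or more was found for 0 of 39 genes with Pbx3, 2 of 37 with Sox9 (Dock8 and Cdh11) and 1 of 42 with Tead4 (Dock8), where 0.0125%, 0.167% and 0.0251% of all genes reached it. A difference of -1 or less was found for 0, 0 and 1 gene, for which no share of all genes is given here. The lowest were Rora with Pbx3 (-0.63) and Tead4 (-1.20) and Bach2 with Sox9 (-0.85). Rora thus had the opposite sign to its difference without Dicer, the largest of the 66. Of the 5 listed let-7 targets in the set, Tgfbr1 had 1689 and 1659 in Tead4 cells, against 1445 and 1499 in vector cells in exonic reads of the Tead4 table and Plagl2 had 144.5 and 136 in Tead4 cells, against 117 and 113 in vector cells, higher in both Tead4 libraries by small amounts. Arid3a had 84.4 and 69.3 in Tead4 cells, against 74.2 and 87.2 in vector cells, and Ccnj had 88.0 and 69.3 in Tead4 cells, against 69.1 and 91.9 in vector cells, with both groups overlapping. None of these 4 passed the test (limma, adjusted p of 0.490 or more), and Arid3b, at 47.6 and 37.4 in Tead4 cells, against 40.6 and 34.9 in vector cells, was below the minimum.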

How the data were processed

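Total RNA depleted of ribosomal RNA was sequenced strand-specifically, per the labels' protocols, and the submitters' processing notes name Bowtie2, mm9 and DESeq 1.10.1. Each of the 8 deposited tables holds 2 group means, per the file headers, which are signal values (normalised counts) made by the authors. The same tables hold the authors' ratio (fold change), the authors' log2 fold change and the authors' p-value and adjusted p-value. The labels list 1 sample per group, but every mean resolved into whole reads of 2 libraries (23227 exonic and 23231 intronic genes, tolerance 1e-09). Each table lists 1 value per group, and no column of another sample was present. Which libraries are separate cultures is not given in the sources used here, and the p-values therefore reflect library spread alone, which may be technical.

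Normalised counts were taken as log2 of the value + 1, and genes with a mean of 50 or more were tested with limma 3.58.1 in R 4.3.3 (trend, Benjamini-Hochberg adjustment, 2 libraries against 2), after a test on simulated data. A count test had been planned, but the deposited unit is not raw counts. The exonic minus intronic difference paired the libraries of the same order, inferred from the data. Named were the 12 genes with the largest difference, those on target lists, those next to the threshold, any passing with a factor and the 3 largest exonic values per factor. Others were added as examples after their values were seen, and 1 gene of the set is counted but not reported by name here. The members and lists were chosen with earlier results of these data known. 3′ UTRs came from GENCODE M21 on GRCm38 and microRNAs from RefSeq, in which 26 of 31 families sought were found. Alternatives were another pseudocount, other minimum values, a term for library order, no trend, unpaired libraries, and leaving out each library.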

Additional observations from a re-analysis of the deposited data

How the results depend on the processing

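The rule gave 66 genes as stated, 63 with a pseudocount of 5, 94 with a minimum of 10 (all 66 among them), 30 with a minimum of 200, and 73 to 79 (51 to 59 of the 66 among them) when a library was left out. Exonic calls without Dicer numbered 1782, with 5052 under a term for library order and 535 to 1908 when a library was left out, lowest without a KO library. Calls in the difference without Dicer numbered 657, with 2242 under library order, 314 without the trend, 1 with unpaired libraries and 350 to 749 when a library was left out. The fit without the trend and, for the Dicer comparison, the one with unpaired libraries were added after seeing the data. No paired design is given by the labels, and the library order, a hint from the data, was tried as a replicate block. With it, calls in the set were 4 exonic, 8 intronic and 2 in the difference with Pbx3 (0 each otherwise), 18, 15 and 5 with Sox9 (0, 3 and 0 otherwise), and 8, 8 and 0 with Tead4 (1, 4 and 1 otherwise). Calls over all genes under that term were 596, 623 and 39 with Pbx3, 1790, 1558 and 309 with Sox9, and 857, 1389 and 1 with Tead4, so that they grew with those of the set except in the Tead4 difference, where Dock8 had an adjusted p of 0.0639 (limma). When a library was left out, Pbx3 gave 0 to 0 of each kind. Sox9 gave 1 to 12 exonic, 1 to 4 intronic and 1 to 2 difference calls. Tead4 gave 0 to 17 exonic, 2 to 7 intronic and 1 to 3 difference calls, with 0 exonic calls without Tead4 library 1. A minimum of 10 gave 2 exonic calls with Sox9, with 105 over all genes. A minimum of 200 gave 0 exonic calls with Tead4, with 9 over all genes, and Dock8 had an adjusted p of 0.053 there (limma). The same minimum gave 2 intronic calls with Tead4, for which no count over all genes is given here. Unpaired libraries gave 0 difference calls with Tead4. The let-7 share of the set was 28.8% with an 8-base match (3.94% of all genes) and 33.3% with the shortest annotated 3′ UTR (5.91%). The cause of these changes was not tested. For the 9 calls with a factor (of Dock8, Rora, Adam12, Parvb, Jazf1 and Pappa), 59 alternative fits kept the call and 13 lost it, and none reversed its direction. A count test of the factor comparisons was not run, since the deposited values are not raw counts. With 2 libraries per group, adjusted p-values near 0.05 depend on single libraries.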
